A study of Mus musculus with 5 samples.

Results

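Cohesin subunit genes were followed in the testis of 3-month-old mice with and without Taf7l. The members were all rows of the deposited expression table named Rec8, Smc1b, Stag3, Rad21, Smc1a, Smc3, Stag1 or Stag2. This gave 17 of 55350 transcript rows and 8 of 21628 genes matched to a symbol. The meiotic subunits Rec8, Smc1b and Stag3 made up 5 rows, and the mitotic forms Rad21, Smc1a, Smc3, Stag1 and Stag2 made up 12.

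One RNA library came from wild-type males and one from Taf7l-/Y males, labelled TAF7L knockout, whose strain the labels do not give. Taf7l is an X-linked gene for a testis paralogue of TAF7, a subunit of the transcription factor TFIID. Polyadenylated RNA of 6 testis extracts was pooled per genotype, so differences between animals cannot be seen. Single ChIP libraries for TAF7L and for RNA polymerase II (Pol II), labelled wild type, gave promoter, proximal and distal scores for each transcript. The shared ChIP protocol describes tissue of 10 mice and names knockout chromatin as well, which the labels do not. The labels put each RNA library at 100 to 200 M (mega) reads and state no depth for ChIP.

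Cohesin is a ring that holds sister chromatids together. An SMC1 and an SMC3 protein form its arms, a kleisin closes it, and a STAG protein binds the kleisin. Dividing cells use SMC1A, SMC3, RAD21 and STAG1 or STAG2. Meiotic cells also build rings with SMC1B, the kleisin REC8 and STAG3, which organise the chromosome axis on which homologues pair. SMC3 serves both kinds of ring and is grouped here with the mitotic forms.

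The promoters are shown first because the meiotic and mitotic genes share a short sequence there. RefSeq promoter sequences (GRCm38.p6, 250 bases before to 50 bases after the start) were matched by symbol for 6 of the 8 members, and Rad21 and Stag2 had no entry. Positions below count from the RefSeq start, with -1 the base before it. All 6 held TCCCGC, the core of an E2F site, on either strand. E2F6 is a repressor known to silence Smc1b and Stag3 in somatic cells. In the following 30-base windows, read along the gene, the core is in capitals.
Smc1b (chr15:85131987-85132016, minus strand): aaaagaatttctTCCCGCgctttttttttt
Stag3 (chr5:138280495-138280524, plus strand): tatcccgtgcctTCCCGCgtttttttctaa
Rec8 (chr14:55618116-55618145, plus strand): gtgtgcacctgaTCCCGCtggagggcgaca
Stag1 (chr9:100643421-100643450, plus strand): aaaggccacgttTCCCGCgccgctgctgcg
Smc1a (chrX:152016448-152016477, plus strand): cggcttgcactgcgctattTCCCGCgcggg
Smc3 (chr19:53600268-53600297, plus strand): tctaagagggccGCGGGAgaggggcctttc

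The core lay on the reverse strand in Smc3, which held a second copy at 30 to 35. It lay at -47 to -42 in Smc1b, -2 to 4 in Stag3, -38 to -33 in Rec8, -15 to -10 in Stag1 and 40 to 45 in Smc1a. The core occurred in 20.0% of all 32851 promoters of the same length and in 33.3% of the 12299 promoters of measured genes. The longer form TTCCCGCG, chosen after the sequences were seen and overlapping the core, occurred in Smc1b, Stag3, Smc1a and Stag1. It was present in 1.01% of all promoters and in 2.03% of those of measured genes. In Smc1b and Stag3 a run of T follows it by 1 base or directly, which the other windows do not have. A match is a sequence description and says nothing about binding in these samples.

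The upstream bases of the meiotic subunits differed beyond this site. They are printed from -200 to -1 to show which motifs each gene has near its start. In Rec8 capitals mark CCAAT boxes, which read ATTGG on this strand, and the E2F core. In Smc1b the first capitals mark an X-box, the element bound by RFX factors, searched with its middle base free. The next capitals mark a palindrome searched as printed, and the last the longer E2F form. In Stag3 they mark the E-box CACGTG.
Rec8 (chr14:55617966-55618165, plus strand): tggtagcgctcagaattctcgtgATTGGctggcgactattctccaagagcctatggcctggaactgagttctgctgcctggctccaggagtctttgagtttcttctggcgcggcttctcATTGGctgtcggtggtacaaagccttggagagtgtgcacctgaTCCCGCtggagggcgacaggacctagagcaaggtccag
Smc1b (chr15:85131958-85132157, minus strand): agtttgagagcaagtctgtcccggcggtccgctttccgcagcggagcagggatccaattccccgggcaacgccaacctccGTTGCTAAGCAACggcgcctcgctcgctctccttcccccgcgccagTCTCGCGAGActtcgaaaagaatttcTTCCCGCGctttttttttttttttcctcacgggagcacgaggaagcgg
Stag3 (chr5:138280309-138280508, plus strand): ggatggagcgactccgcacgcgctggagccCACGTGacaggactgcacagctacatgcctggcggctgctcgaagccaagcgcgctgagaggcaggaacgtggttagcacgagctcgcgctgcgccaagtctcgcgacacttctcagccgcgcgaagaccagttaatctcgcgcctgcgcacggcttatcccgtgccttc

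Searched on both strands, the X-box occurred in 0.0731% of all promoters and 0.130% of those of measured genes, and the palindrome in 0.466% and 1.11%. The E-box occurred in 7.15% and 9.91%, and CCAAT in 37.4% and 38.5%. Among the 6 members the X-box and the palindrome were found in Smc1b, the E-box in Stag3, and CCAAT in all but Smc3. The GC box GGGCGG, present in 35.7% of all promoters and 59.5% of those of measured genes, was found in Stag3, Smc1a, Smc3 and Stag1. Neither the cyclic AMP response element TGACGTCA (1.79% and 3.14%) nor TATAAA (13.6% and 7.47%) was found in any of the 6.

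The expression signal has no unit in the deposited table and is on the scale of RPKM. It was taken as per length, and every comparison of levels between genes rests on that. Signals of the members, Taf7l and the neighbouring genes are first given with the deposited standard deviation (SD). The sources used here do not state its basis, and it is no spread between animals or libraries. Signals of other genes are mostly given without it. With 1 library per genotype no test was possible. Changes are log2((knockout + 1)/(wild type + 1)), which understates low genes, and a gene was called at 2-fold. Taf7l itself had 13.2 ± 1.56 in wild-type and 2.04 ± 0.600 in knockout testis. Of 12391 genes whose mean signal reached 1, 7.36% were called higher and 7.31% lower, and the median log2 change was 0.40. Rescaling the knockout to a median change of 0 moved the share of lower genes among those called from 49.8% to 92.5%. All 8 members passed the minimum of 1.

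The meiotic subunits stood above their mitotic counterparts in wild-type testis. Stag3, which encodes the STAG protein of meiotic rings, had the highest signal of the 8 genes, 64.6 ± 4.45. Smc1b and Rec8 followed with 39.6 ± 2.59 and 39.1 ± 3.61, which did not differ beyond their SDs. Next came the kleisin gene Rad21 at 21.4 ± 1.49 and the arm gene Smc3 at 16.8 ± 1.28. The 3 mitotic counterparts with the lowest levels were Stag1 at 5.84 ± 1.24, Stag2 at 2.28 ± 0.284 and Smc1a at 1.70 ± 0.396. All other neighbours in this order differed by more than the combined SD. The meiotic genes lay at percentiles 83.9 to 89.4 of measured genes, and Smc1a at 16.5.

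**Figure D1:**
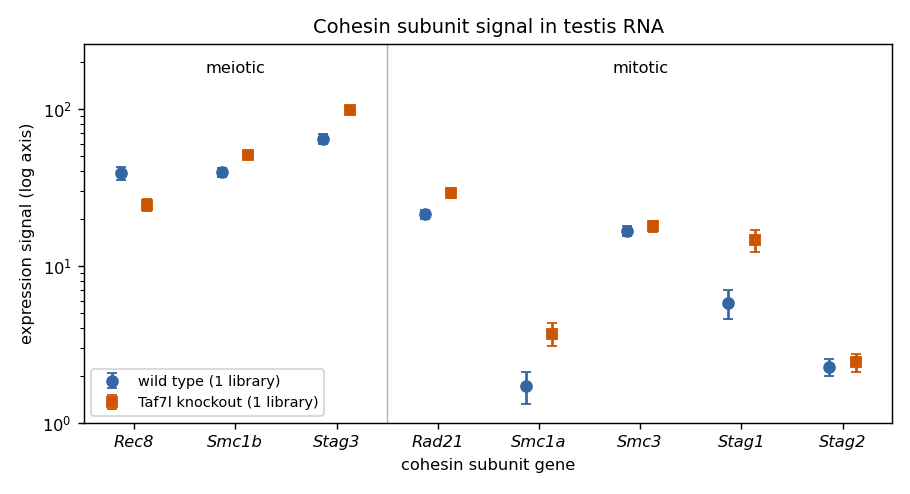
Expression signal (log axis) of the 8 cohesin genes in the wild-type (circles) and knockout (squares) RNA library, with the deposited SD as bars. Rec8 is the only gene whose knockout value lies below its wild-type value at the deposited scaling, 24.6 against 39.1.

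Rec8 was lower in the knockout library, whereas the other 7 genes were higher at the deposited scaling; after rescaling Smc1b, Rad21, Smc3 and Stag2 also lay below 0. Rec8 encodes the meiotic kleisin that separase cuts at the meiotic divisions (chromosome 14, 56237007 to 56244227, mm9). Its single row had 39.1 ± 3.61 in wild-type and 24.6 ± 2.18 in knockout testis. The knockout library was the low one, and the intervals of 1 SD did not overlap. The ratio of knockout to wild type was 0.629 ± 0.0805, a log2 change of -0.65, below the 2-fold call. This lay at percentile 12.1 of measured genes and at -1.05 relative to their median. With the knockout rescaled to a median change of 0 the value was -1.12, past 2-fold.

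Smc1b and Stag3 lay close to the median of all genes. Smc1b, which encodes the meiotic SMC1 arm (chromosome 15, 84895119 to 84962387, mm9), had 39.6 ± 2.59 in wild-type and 51.3 ± 2.66 in knockout testis. The knockout library was the high one, with a ratio of 1.29 ± 0.108. The log2 change of 0.36 was -0.04 relative to the median, and after rescaling it was -0.12. Stag3 (chromosome 5) had 3 rows. The shortest, 138721772 to 138738053, had 64.6 ± 4.45 and 98.1 ± 5.68. Both full-span rows, 138721737 to 138753621, had lower signals: one 47.9 ± 1.48 and 68.4 ± 2.57, the other 35.6 ± 1.13 and 50.5 ± 1.75. All 3 were higher in the knockout, with ratios of 1.42 to 1.52 and log2 changes of 0.50 to 0.60. Relative to the median of all genes these were 0.09 to 0.19.

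Among the mitotic kleisin and arm genes, Smc1a had the largest ratio. Rad21, the kleisin of mitotic rings (chromosome 15, 51794150 to 51823306), had 21.4 ± 1.49 and 29.3 ± 2.29, a log2 change of 0.44. Smc3 (chromosome 19, 53674886 to 53720321) had 16.8 ± 1.28 and 17.9 ± 1.34, with a log2 change of 0.09 and overlapping intervals. Smc1a (chromosome X, 148450971 to 148496516) had 1.70 ± 0.396 and 3.71 ± 0.604. Its knockout value was higher by a ratio of 2.18 ± 0.617, but the log2 change with pseudocount 1 was 0.80, below the call. A second Smc1a row ending at 148470791 had 1.42 ± 0.564 and 3.50 ± 0.797, and here too the intervals of 1 SD did not overlap. With a pseudocount of 0.1 Smc1a was called higher, at 1.08. Without a pseudocount, 18% of the 12320 measured genes above 0 in both libraries had a ratio of at least 2.

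Stag1 was the member called higher, 1 of 8 against the background of 7.36%. No member was called lower, against 7.31%. Stag1 encodes a STAG subunit of mitotic rings (chromosome 9). Its row with the highest signal, 100544042 to 100856868, rose from 5.84 ± 1.24 to 14.6 ± 2.33, a log2 change of 1.19 at percentile 97.5. Its 2 rows with the longest span, ending at 100858963, had 2.77 ± 0.272 and 6.48 ± 0.587 in one, and 2.63 ± 0.260 and 6.17 ± 0.558 in the other. Their log2 changes of 0.99 and 0.98 stopped short of 2-fold, although their ratios were 2.34 each. The call therefore depends on the row that stands for the gene, and it was also lost after rescaling, at 0.73. The row ending at 100697274 had 3.27 ± 0.957 and 8.50 ± 1.80, a log2 change of 1.15. The row ending at 100640014 had 0.521 ± 0.187 and 0.934 ± 0.285, the lowest of the 5.

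Stag2, the other mitotic STAG gene (chromosome X), had nearly equal values in both libraries. Its leading row, 39503878 to 39630352, had 2.28 ± 0.284 and 2.44 ± 0.324. The row starting at 39502589 and ending at the same base had 2.16 ± 0.274 and 2.30 ± 0.308. A shorter row ending at 39565857 had 0.424 ± 0.233 and 0.546 ± 0.346. In all 3 the intervals overlapped, with log2 changes of 0.06 to 0.12. A further row inside this span is named SAP2, an older name of Stag2. It lies outside the membership rule and had 3.11 ± 3.62 and 3.92 ± 3.24.

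**Figure D2:**
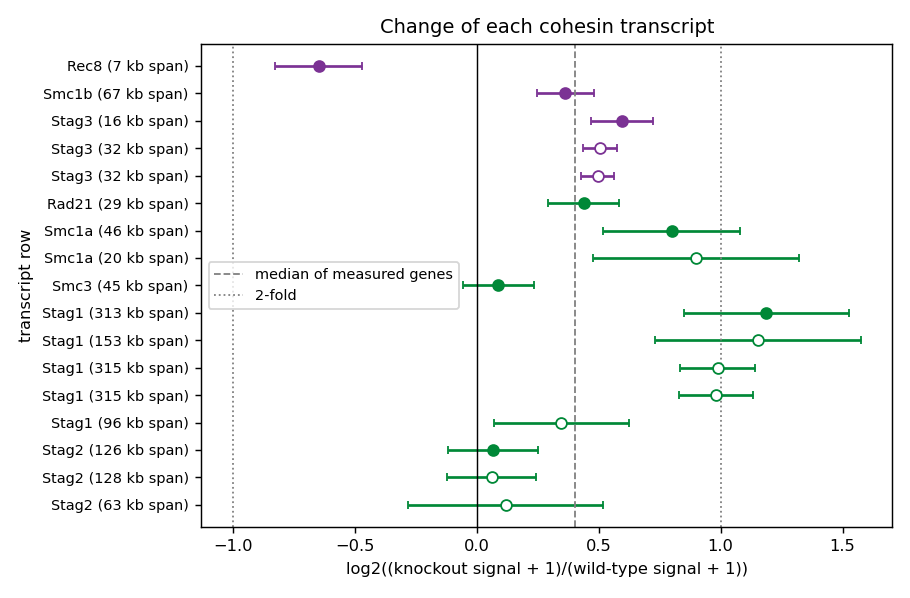
Log2 change of each of the 17 transcript rows (meiotic purple, mitotic green), with the SD carried over from the deposited SDs and filled points for the row that stands for the gene. Rec8 lies at -0.65, left of 0, and 2 Stag1 rows lie right of the 2-fold line, the leading one at 1.19.

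By class, the median log2 change was 0.36 for the 3 meiotic genes and 0.44 for the 5 mitotic genes, beside 0.40 for all measured genes. The meiotic genes ranged from -0.65 to 0.60 and the mitotic genes from 0.07 to 1.19, so the ranges overlapped. The difference of the medians was -0.08, less than the 0.19 combined from the SDs of Smc1b and Rad21, the genes at the medians. That value leaves out the spread among the genes of each class. With Smc3, which serves both kinds of ring, left out of the mitotic genes, the difference was -0.26.

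Ratios of paralogues within a library do not depend on how the libraries are scaled, and most of them differed between the libraries by more than their SDs. Rec8 to Rad21 was 1.83 ± 0.212 in wild-type and 0.839 ± 0.0991 in knockout RNA, so that the order of the kleisin genes was opposite in the 2 libraries. Smc1b to Smc1a was 23.3 ± 5.62 and 13.8 ± 2.37. Stag3 to Stag1 was 11.1 ± 2.47 and 6.73 ± 1.14. Stag3 to Stag2 went the other way, with 28.3 ± 4.04 and 40.3 ± 5.84. The intervals of 1 SD did not overlap for any of these 4 ratios. They did overlap for Stag3 to the sum of Stag1 and Stag2, with 7.96 ± 1.36 and 5.77 ± 0.864.

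The STAG ratios also depend on the row used. With the row of the longest span for each gene, Stag3 to Stag1 was 17.3 and 10.6, and Stag3 to Stag2 was 22.2 and 29.8. Against Smc3, the arm common to both kinds of ring, the meiotic genes did not move together. Rec8 to Smc3 was 2.33 ± 0.279 in wild-type and 1.37 ± 0.159 in knockout RNA. Smc1b to Smc3 was 2.36 ± 0.238 and 2.86 ± 0.260, and Stag3 to Smc3 was 3.85 ± 0.396 and 5.48 ± 0.517.

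**Figure D3:**
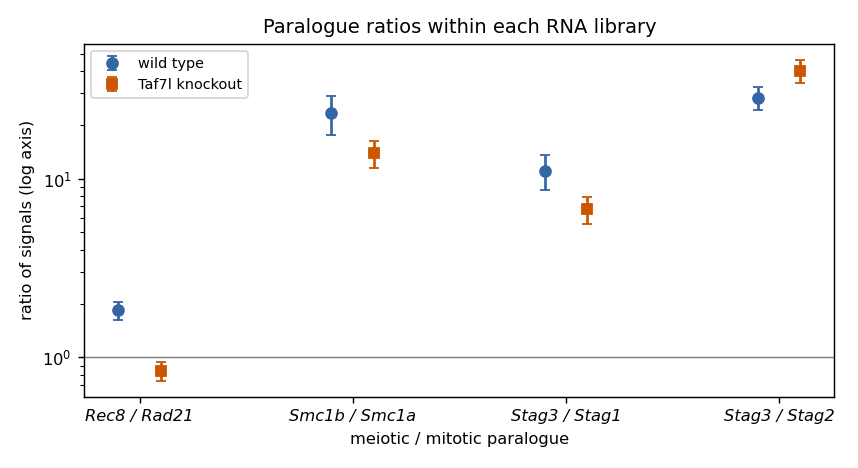
Ratio of the meiotic to the mitotic signal (log axis) for 4 paralogue pairs in the wild-type (circles) and knockout (squares) library, with the SD carried over from both genes. Rec8 to Rad21 crosses the line at 1, from 1.83 to 0.839, and Stag3 to Stag2 is the only ratio that is higher in the knockout.

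In bulk testis, fewer cells of a type and less RNA per cell cannot be told apart, and cell markers moved between these libraries. The marker counts are to be read beside 7.36% called higher and 7.31% called lower over all measured genes. Of 11 spermatid markers all 11 were at least 2-fold lower, with signals that summed to 66541 in wild-type and 12006 in knockout RNA. Of 13 spermatocyte markers 2 were called higher and none lower, with a median log2 change of 0.81 and sums of 870 and 1063. The 7 markers of dividing cells had a median of 0.67, with 1 called higher. The 7 of 11 spermatogonial markers that reached a mean of 1 had a median of 1.08, with 4 called higher. Of 8 matched Sertoli markers 5 were called higher, and of 6 Leydig markers 3. The Leydig markers were mixed, since Star had 23.5 and 11.7 and Insl3 1686 and 1052, and the list summed to 1894 and 1526. Of 5 peritubular markers 3 were called higher, and of 4 measured macrophage markers 1, while none of these 4 lists had a lower call. No marker was at 0 in either library. Their part in the cohesin values was not tested.

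Of the 46 measured genes of the other pathway lists, 45 lay above 0, against 72.4% of all measured genes, and 38 lay above the median of all measured genes. Of 9 genes for loading, release and acetylation 8 were measured and 1 was called, against the background of 7.36%. Esco2, which encodes an acetyltransferase that acts on SMC3, rose from 2.22 to 6.13. The loader gene Nipbl, the most abundant of them, had 77.3 and 82.1. Cdca5, which encodes sororin, an antagonist of ring release, had the lowest log2 change, 0.02, with signals of 8.11 and 8.22. Of 9 genes for cleavage and protection 2 were called higher. These were Ppp2ca and Ppp2r1a, core subunits of the phosphatase that protects centromeric cohesin, with 19.7 and 43.1, and 16.9 and 36.7. Pttg1, which encodes the separase inhibitor securin, was the most abundant with 44.6 and 55.6. The kinase gene Plk1 had 30.1 ± 2.03 and 26.7 ± 2.34, with overlapping intervals of 1 SD. Its log2 change of -0.17 was the only value below 0 among the 46 measured pathway genes.

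The remaining partners had medians above that of all genes, 0.40. Of 14 condensin and SMC5/6 genes 1 was called higher, the condensin kleisin gene Ncaph with 4.28 and 10.04, against the background of 7.36% for this and the counts that follow, and the median was 0.71. Nsmce1, a ubiquitin ligase subunit of the SMC5/6 complex, was the most abundant with 158 and 169. Of 4 meiotic axis genes 1 was called, Hormad1, with 11.7 and 25.7. The median of these 4 was 0.93, and Sycp3, the most abundant, had 24.2 and 43.4. Rad21l, the gene of a further meiotic kleisin, had 0.685 and 1.94. Among genes of the E2F6 repressor complex none of 9 was called, with log2 changes of 0.45 to 0.89. E2f6 itself had 0.870 ± 0.571 and 2.08 ± 0.933, with overlapping intervals of 1 SD. Cbx3, the most abundant, had 21.7 and 33.8, Rnf2 6.50 and 12.9, and Ring1 12.1 and 17.0. Of the boundary factors, Ctcf had 3.58 and 5.07, and Ctcfl did not reach a mean of 1.

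TAF7L and Pol II promoter scores varied among the cohesin genes. The counts of members with such a score lay near the shares over all measured genes. The authors gave each score without defining it or its distance classes, and 0 was read as no assigned signal. A Pol II promoter score was present at 8 of 8 members, against 86.8% of measured genes, and a TAF7L promoter score at 4 of 8, against 55.1%. Smc3 had the highest of both, with 81.9 for TAF7L and 764 for Pol II. Stag1 had 81.4 and 450, Rad21 54.6 and 302, and Stag3 41.2 and 442. Stag3 was the only meiotic subunit with a TAF7L promoter score, and it lay at percentile 13.2 of the measured genes with one.

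Rec8, Smc1b, Smc1a and Stag2 had a TAF7L promoter score of 0. Their Pol II promoter scores were 160 for Rec8, 384 for Smc1b and 349 for Smc1a. For Stag2 the score was 173 at the 2 rows that start first and 105 at the third. Smc1b, Smc1a and Stag2 had no TAF7L score in any class, 3 of 8 members against 22.1% of measured genes. Smc1a and Stag2 are X-linked, and of 496 measured X-linked genes 4.44% had a TAF7L promoter score, against 57.3% of 11888 autosomal genes. Pol II promoter scores were also less frequent on the X, at 56.5% against 88.0% of these genes. Smc1b is autosomal. Proximal TAF7L scores stood at Rad21 (56.1), Stag1 (44.5) and Smc3 (41.9), 3 of 8 against 33.8%. Distal scores stood at Rec8 (73.0) and Stag3 (34.4), 2 of 8 against 53.6%.

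**Figure D4:**
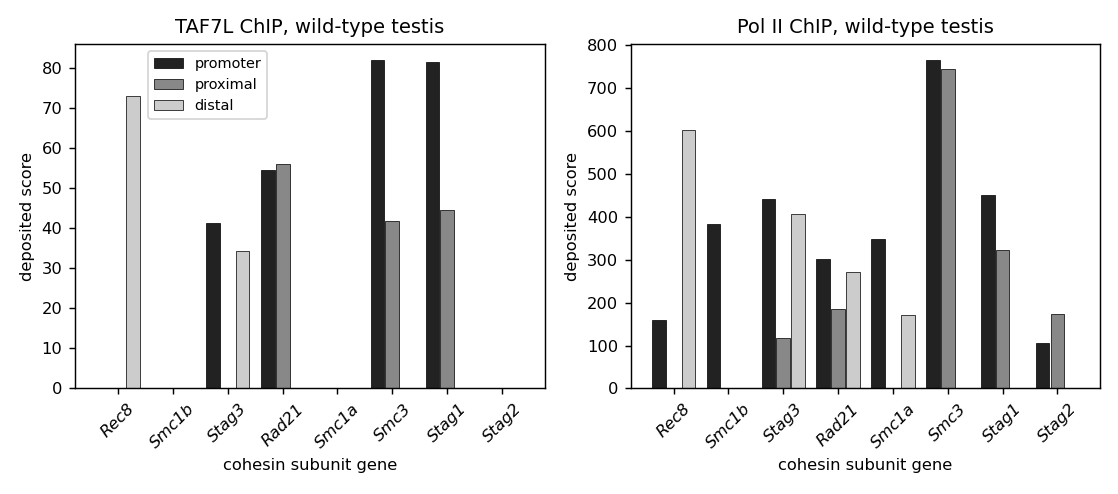
Deposited TAF7L (left) and Pol II (right) scores of the row that stands for each cohesin gene, in promoter (black), proximal (grey) and distal (light) classes, from 1 library each. TAF7L promoter bars stand at Stag3, Rad21, Smc3 and Stag1, while all 8 genes have a Pol II promoter bar, from 105 at this Stag2 row to 764 at Smc3.

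The log2 changes were also set beside the TAF7L promoter scores. Only Rec8 lay below 0 at the deposited scaling, so directions could not be compared between genes with and without a score. The 4 genes with a TAF7L promoter score had log2 changes of 0.60 (Stag3), 0.44 (Rad21), 0.09 (Smc3) and 1.19 (Stag1). The 4 without one had -0.65 (Rec8), 0.36 (Smc1b), 0.80 (Smc1a) and 0.07 (Stag2). The ranges of these changes overlapped, and no test was made over so few genes.

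Some of these scores were shared with a neighbouring gene, so the signal cannot be given to the cohesin gene alone. Both SMC1 genes lie beside a RIBC gene, which encodes a protein of the ciliary axoneme. Smc1b and Ribc2 point away from each other with 141 bases between their RefSeq starts, and both had the Pol II promoter score of 384. Smc1a and Ribc1 do so with 133 bases between starts, and both had 349. None of these 4 genes had a TAF7L score at its promoter. The X-box, the palindrome and the longer E2F form in the printed Smc1b sequence all lie between the starts of Smc1b and Ribc2. The promoter sequence of Ribc1 held TTCCCGCG at -178 to -171 from its own start. This is the same site as the one at 39 to 46 in Smc1a, not a further copy.

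The RNA of these neighbours nevertheless differed in direction. Ribc1 fell from 37.6 ± 3.21 to 13.8 ± 1.94, a log2 change of -1.38, whereas Smc1a had 1.70 and 3.71. Ribc2 had 19.2 ± 1.67 and 15.7 ± 1.34 in its leading row, a log2 change of -0.27, whereas Smc1b had 39.6 and 51.3. Each pair thus had the cohesin gene higher and the RIBC gene lower in the knockout library, except that Smc1b was at -0.12 after rescaling. The spans of the genes in each pair did not overlap.

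Stag3 and Rec8 also shared signal with neighbours. Stag3 and Gpc2, a glypican gene with 572 bases between the RefSeq starts, had the same promoter scores, 41.2 for TAF7L and 442 for Pol II. Both were higher in the knockout, Gpc2 with 1.49 ± 0.290 and 2.93 ± 0.550. The promoter sequence of Gpc2 held the core TCCCGC too. The distal scores of Stag3, 34.4 for TAF7L and 407 for Pol II, equalled the promoter scores of the nearby gene BC037034. At Rec8 the distal Pol II score of 601 equalled the promoter score of the importin gene Ipo4, whose span begins 238 bases after that of Rec8 ends. The distal TAF7L score of 73.0 at Rec8 equalled a promoter score of Tm9sf1, the next gene along. Ipo4 had 46.1 ± 1.60 and 36.3 ± 1.57, also lower in the knockout, with a TAF7L promoter score of 71.4. Tm9sf1 was higher in the knockout in every row, with 3.04 ± 0.796 and 5.39 ± 0.900 in 1 row that has the score of 73.0. Its row with the highest signal had 27.63 ± 16.17 and 37.45 ± 17.05, with overlapping intervals and a TAF7L promoter score of 0.

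**Figure D5:**
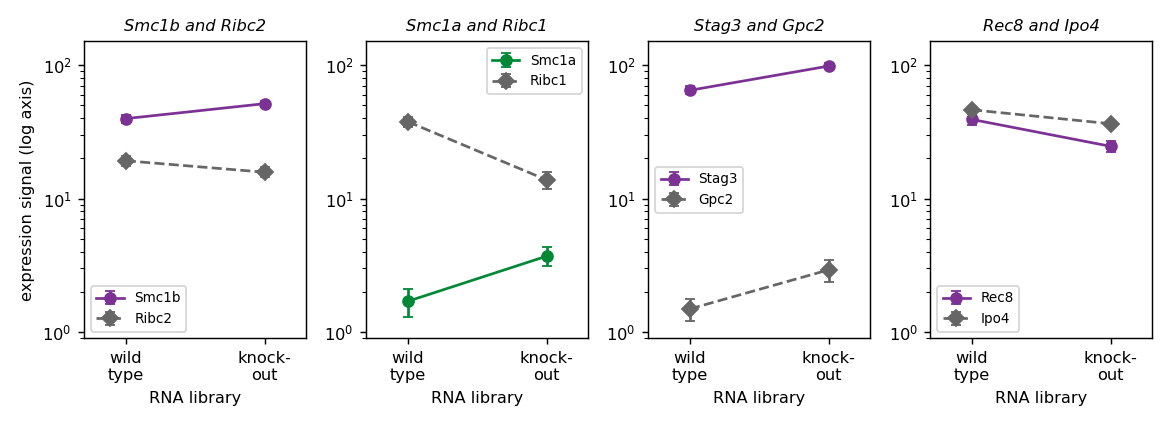
Expression signal (log axis) of 4 cohesin genes (solid lines) and a neighbouring gene (dashed lines) in the wild-type and knockout library, with the deposited SD. Smc1a and Ribc1, which share a Pol II promoter score, cross the 2 libraries in opposite directions, 1.70 to 3.71 and 37.6 to 13.8.

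Genes most like the meiotic subunits were found from percentile ranks of 4 measures over measured genes, the wild-type and knockout signals and the TAF7L and Pol II promoter scores. These come from 2 RNA and 2 ChIP libraries, and distances are in percentile points. Nearest to Rec8 was Ccdc175 at a distance of 1.15, with signals of 40.6 and 25.6. Its promoter scores were 0 for TAF7L and 164 for Pol II. Ankrd7 followed at 1.56 and Hipk4 at 2.27. Nearest to Smc1b were Ccs at 2.39, Psmd6 at 3.88 and Nol8 at 3.91. Nearest to Stag3 were Atp6v1d at 2.29, the cohesin loader gene Nipbl at 2.47 and Mpi at 3.78.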

How the data were processed

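The authors deposited 2 tables, joined here by transcript accession. Per the file headers, the expression table gives each genotype's mean signal with its standard deviation (SD), a log2 wild-type-to-knockout ratio and the ratio of SD to mean, of which only the signals and SDs were used. Per the file headers, the binding table gives a TAF7L and a Pol II score per transcript in 3 classes. The submitters' processing notes name Bowtie for ChIP, Bowtie, TopHat and Cufflinks for RNA, and mm9, without versions. The IgG library has no column, and the derivation of the scores is not stated by the sources here.

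Symbols were matched with RefSeq names (GRCm38), for 46886 of 55350 transcripts. Each gene was represented by its transcript with the highest mean signal. Table starts were taken as counted from 0 and raised by 1, because end minus start equalled the RefSeq span for 9505 transcripts, against 733 with 1 added. The pseudocount was 1, the minimum mean signal 1 and the call 2-fold. A gene had a score when any of its transcripts did.

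Members and lists were chosen with earlier results of these data known. Named were all 8 members and, of each of 7 pathway lists, every called gene, the most abundant gene and the largest increase and decrease, plus the 3 genes nearest to each meiotic subunit. The neighbouring genes and the promoter motifs were chosen after their values or sequences were seen. Alternatives covered the pseudocount (0.1), the minimum (none or 5), the scaling, the transcript used, the fold (1.5), the members taken as mitotic and a stricter score. Calculations used Python 3.11, pandas 2.3.3 and numpy 2.4.6.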

Additional observations from a re-analysis of the deposited data

How the results depend on the processing

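Without replicate libraries, none of the changes has a replicate check. No paired analysis was possible because each genotype has 1 pooled library and the labels give no replicate numbers. Of 40 recomputed member changes, 32 stayed within the SD carried over from the deposited values. Some of these 32 could not differ. Rec8, Smc1b, Rad21 and Smc3 have 1 row each, so the choice of transcript left them as they were. The leading Smc1a row is also its longest. The 8 changes beyond that SD all came from rescaling the knockout to a median change of 0, which multiplies every knockout signal by 0.711. With this factor Smc1b, Rad21, Smc3 and Stag2 turned to -0.12, -0.03, -0.37 and -0.26. None of these 4 was a called value. Why the median change of all genes lay above 0 was not tested.

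Members called higher, 1 in the report (Stag1), were 2 with a pseudocount of 0.1 (Smc1a and Stag1), 3 at 1.5-fold (Stag3, Smc1a and Stag1), and 0 after rescaling, with the median over transcripts, or with the longest span, an alternative chosen after seeing the data. Members called lower, 0 in the report, were 1 after rescaling and 1 at 1.5-fold, Rec8 in both. Members with a TAF7L promoter score, 4 in the report, were 2 (Smc3 and Stag1) above 71.7, the median of the measured genes with a score. Over all 12391 measured genes, 912 higher and 906 lower calls became 2031 and 1130 with a pseudocount of 0.1. They became 127 and 1575 after rescaling, and 4404 and 1627 at 1.5-fold. The member counts at these settings are to be read beside these counts over all genes. The difference of medians, -0.08, ranged from -0.26 without Smc3 to -0.08. Among the rows that stand for the 8 genes, Stag1 and Smc1a had the largest SDs of the log2 change, 0.34 and 0.28.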
